A study of Homo sapiens with 8 samples.

Results

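The 5 interferon regulatory factor genes IRF1, IRF2, IRF3, IRF7 and IRF9 were described by their RNA splicing in a human T cell line with and without the RNA-binding protein CELF2. They are 5 of the 10573 genes listed in both of the authors' deposited tables of splicing changes, 1 table for cells given PMA and 1 for unstimulated cells. Every local splicing variation (LSV) assigned to a member was taken. An LSV is 1 exon with all the splice junctions and retained introns that leave it or enter it, and each of these has a share of the LSV, in percent. The members had 53 LSVs in both tables, of 87517 such LSVs, and 58 in either table. The set was chosen by gene family together with the shares that the tables give for IRF7, so the shares below are a description and carry no test of their own.

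The cells were JSL1, a monoclonal line derived from the Jurkat T cell leukaemia line, and therefore 1 clone. There were 4 groups of 2 libraries each, 8 in all. They were PMA-treated CELF2-depleted cells, PMA-treated control cells, unstimulated CELF2-depleted cells and unstimulated control cells. The phorbol ester PMA activates protein kinase C, which mimics part of T cell receptor signalling, and was given at 20 ng/mL for 48 hours. Depletion came from stably integrated lentiviral hairpins against CELF2 that are switched on by doxycycline. The sources used here do not say if controls had doxycycline or a hairpin of their own, or if the paired libraries are separate cultures.

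Interferon regulatory factors are transcription factors that bind DNA elements in interferon genes and in interferon-induced genes. IRF3 and IRF7 wait in the cytoplasm until kinases downstream of viral RNA and DNA sensors phosphorylate them, and then enter the nucleus and switch on type I interferon genes. IRF9 works with STAT2 downstream of the interferon receptor, while IRF1 mainly activates and IRF2 mainly represses genes through similar elements.

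Each share is the authors' 1 value per group, made from both of its libraries together. Library-to-library spread and read numbers behind a share are therefore unknown. In bulk RNA a share is an average over the cells, so a large change in some cells and a smaller one in all cannot be told apart. Shares ran from 2.5% to 97.5%. Where a share stood at one of these limits in several groups, a difference beyond the limit could not show. The authors' measure of error is a posterior probability that a share differs by at least 20 percentage points between depleted and control cells, and an LSV was called where it reached 0.95 for any junction or intron. LSVs were listed for 10 of 12 T cell marker genes, 1 of 6 B cell marker genes and 0 of 7 myeloid marker genes in both states, and the tables hold no expression levels. CELF2 RNA could therefore not be checked in any library; CELF2 itself had 3 of 16 LSVs called with PMA and 0 of 11 without. Between the states, shares come from tables quantified separately, and such differences were not tested.

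The sequences shown for the IRF7 result are the annotated alternative starts of its coding region. They lie on the minus strand of chromosome 11 and are given from GENCODE 29 transcripts in GRCh38 coordinates, while coordinates of LSVs elsewhere in the text are those of the tables, in hg19. With an 85-nt intron retained, translation in the annotated transcript used here starts inside that intron (chr11:615240-615318). With it spliced, translation starts in the exon upstream (chr11:615240-615364, with the intron removed). The start codon is in capitals, and the last 20 bases of both belong to the exon they share.
Intron retained: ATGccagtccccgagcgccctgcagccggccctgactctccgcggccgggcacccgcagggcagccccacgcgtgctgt
Intron spliced: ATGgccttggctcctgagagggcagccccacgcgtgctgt
The retained form has 59 coding bases in the intron, and the spliced form has 20 coding bases in the upstream exon. The difference of 39 bases is 13 codons, and the annotated coding regions are 516 codons with the intron and 503 codons without it. RNA that keeps the intron together with the upstream exon also holds the start codon of that exon. The 85 bases of the intron are not a whole number of codons. Which start codon is used was not measured. Of 18 annotated IRF7 transcripts, 5 keep the intron, 4 of them protein coding, and 9 splice it, 4 of them protein coding. The remaining sequence shown is the exon of 226 bases whose skipping also differed (chr11:614174-614399), all of it coding in the transcript that was read.
226-nt exon: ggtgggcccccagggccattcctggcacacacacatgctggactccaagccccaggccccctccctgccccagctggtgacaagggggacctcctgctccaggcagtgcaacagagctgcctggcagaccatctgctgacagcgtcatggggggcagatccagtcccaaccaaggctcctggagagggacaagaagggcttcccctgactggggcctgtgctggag

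**Figure D1:**
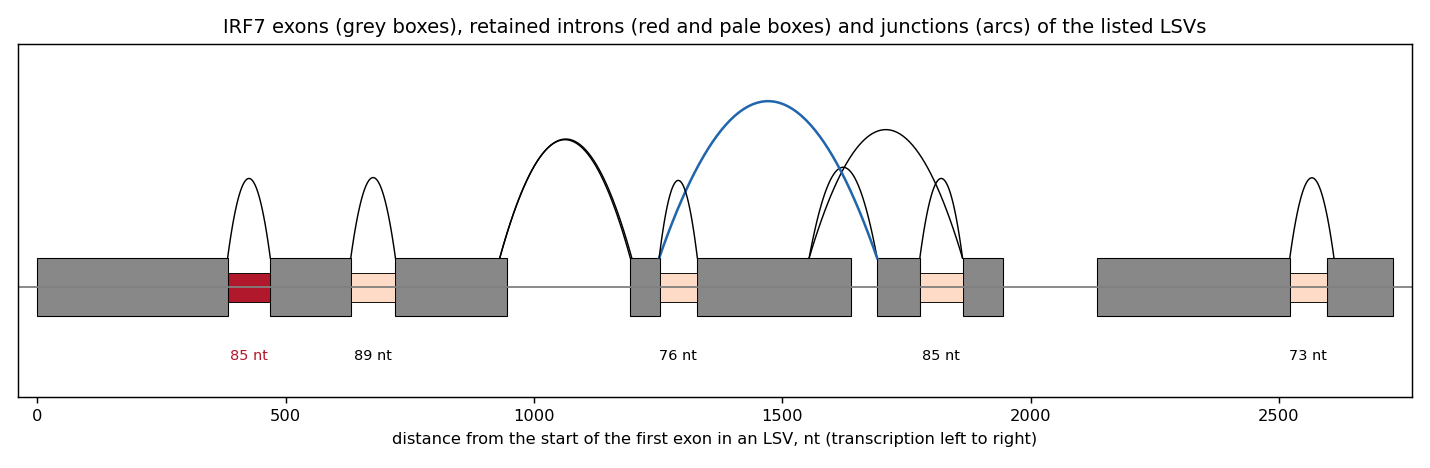
Map of the listed IRF7 LSVs, with transcription from left to right and distance in nucleotides from the start of the first exon in an LSV. Grey boxes are exons with the bounds of the tables, small boxes are retained introns with their lengths, and arcs are junctions with a share of at least 5% in any group; the 85-nt intron at the coding start is red and the junction that skips the 226-nt exon is blue.

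IRF7, which drives the broad production of type I interferons, held all the called IRF changes. With PMA, 2 of the 53 IRF LSVs in both tables were called in the authors' deposited table, against a background of 1.72% of all LSVs in both tables. Of the 58 LSVs that the PMA table lists, 3 were called (5.17%, background 1.87%), and all 3 were in IRF7. Without PMA 0 of 53 were called (background 0.985% of that table, and 0.9% of LSVs in both), and the highest posterior probability in the authors' deposited table was 0.774, again in IRF7. At an expected change of at least 20 points in the authors' deposited tables, 2 of the 53 IRF LSVs passed with PMA (3.55% of all LSVs in both tables) and 1 without (2.16%). At 10 points 5 passed with PMA (9.01%) and 3 without (5.94%). Among LSVs in both tables with no de novo junction, 0 IRF LSVs were called in either state (background 1.71% with PMA and 0.853% without). How many IRF LSVs have no de novo junction is not given here, so this 0 cannot be set against that background. Since the members were chosen with this contrast known, nothing is read from these shares.

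The 85-nt intron (hg19 chr11:615260-615344) was retained most in PMA-treated depleted cells and least in PMA-treated controls. In the LSV entering the downstream exon (chr11:615097-615259), the intron's share was 64.5% in PMA-treated depleted cells, 14.2% in PMA-treated control cells, 57.7% in unstimulated depleted cells and 48.0% in unstimulated control cells. The same intron in the LSV leaving the upstream exon (chr11:615345-615728) had 49.9% in PMA-treated depleted cells, 9.9% in PMA-treated controls, 34.1% in unstimulated depleted cells and 25.4% in unstimulated controls. In both LSVs the PMA-treated controls stood lowest by a wide margin, and the PMA-treated depleted cells highest. The splicing junction was the complement: entering the downstream exon it had 35.4% in PMA-treated depleted cells, 85.7% in PMA-treated controls, 42.0% in unstimulated depleted cells and 51.4% in unstimulated controls. With PMA the authors' deposited table gives an expected change of 51.6 points for the intron entering the downstream exon and 41.0 points for it leaving the upstream exon, both with a posterior probability of 1. Without PMA the authors' deposited table gives expected changes of only 1.02 and 0.718 points, with posterior probabilities of 0.0185 and 0.0127.

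Averaged over both LSVs, retention was 57.2% in PMA-treated depleted cells, 12.05% in PMA-treated control cells, 45.9% in unstimulated depleted cells and 36.7% in unstimulated control cells. Depleted minus control was therefore 45.15 points with PMA and 9.2 points without. PMA-treated minus unstimulated was 11.3 points in depleted cells and -24.65 points in control cells, so the shares moved in opposite directions with PMA. The ends of this intron differed in level by 23.6 points in unstimulated depleted cells and 22.6 points in unstimulated controls. The rise in depleted cells was smaller than that, at 6.8 points entering the downstream exon and 15.8 points leaving the upstream exon. The differences with PMA rest on 2 separately quantified tables and were not tested. Among 15198 retained introns listed in both tables, this one included, 11 had a rise on depletion with PMA at least as large. Over the 4 groups 60 (0.395%), again with this one, spanned at least as many points. This intron was picked as the IRF7 intron with the widest span, so its rank carries no test. The median intron spanned 2.75 points.

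**Figure D2:**
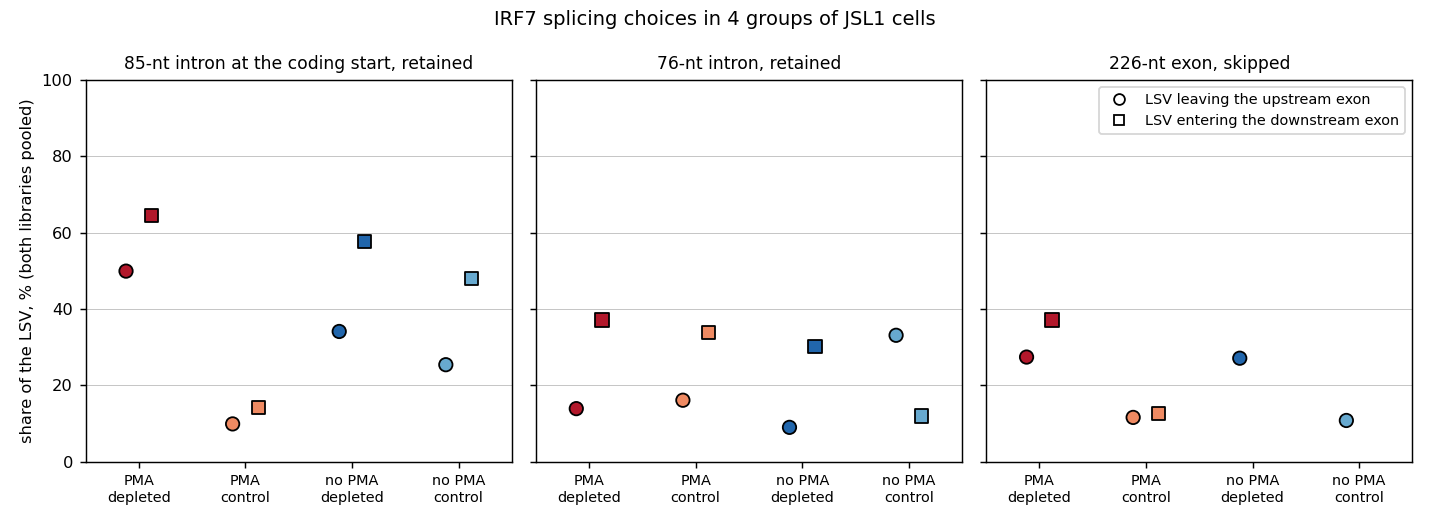
Shares of 3 IRF7 splicing choices in percent, with the 4 groups on the x axis; circles are the LSV leaving the upstream exon and squares the LSV entering the downstream exon, each pooled over 2 libraries. The 85-nt intron is lowest in PMA-treated controls at both ends (9.9% and 14.2%), the ends of the 76-nt intron differ from each other, and skipping of the 226-nt exon is higher in depleted cells wherever it is listed.

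The 226-nt exon (hg19 chr11:614174-614399), whose sequence is given above, had a higher share of skipping in depleted cells. The tables draw this exon from position 614090, beyond its annotated downstream end. In the LSV entering the 87-nt exon downstream (chr11:613951-614037), listed with PMA only, the skipping junction had 37.1% in PMA-treated depleted cells and 12.7% in PMA-treated control cells, and the authors' deposited table gives it a posterior probability of 0.952. In the LSV leaving the 59-nt exon upstream (chr11:614476-614534), the same junction had 27.4% in PMA-treated depleted cells, 11.6% in PMA-treated controls, 27.1% in unstimulated depleted cells and 10.8% in unstimulated controls. Its share was thus similar in both depleted groups and lower in both control groups. In that LSV it was not called, with posterior probabilities of 0.306 with PMA and 0.218 without in the authors' deposited tables. The length of 226 is not a multiple of 3 (remainder 1), and all 3 annotated transcripts that skip the exon are marked as targets of nonsense-mediated decay, the pathway that degrades RNAs with early stop codons.

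The 76-nt intron just upstream of that exon (hg19 chr11:614400-614475) had shares that disagreed between its ends. Leaving the 59-nt exon it had 13.9% in PMA-treated depleted cells, 16.1% in PMA-treated controls, 9.0% in unstimulated depleted cells and 33.1% in unstimulated controls. Entering the 226-nt exon it had 37.1% in PMA-treated depleted cells, 33.8% in PMA-treated controls, 30.2% in unstimulated depleted cells and 12% in unstimulated controls. Without PMA the depleted cells were therefore lower at one end and higher at the other, and the means of both ends, from 19.6% to 25.5%, spanned 5.9 points over the groups. The posterior probabilities without PMA in the authors' deposited table were 0.774 at the upstream end and 0.241 at the downstream end, neither of them called. The junction that joins the 59-nt and 226-nt exons had 57.4% in PMA-treated depleted cells, 71.8% in PMA-treated controls, 62.7% in unstimulated depleted cells and 55.7% in unstimulated controls in the LSV leaving the 59-nt exon. The LSV of this intron leaving the 59-nt exon was, of the member LSVs in both tables, the one just inside the span of 15 points set for full description, at 24.1 points, and an LSV of IRF2 was just outside it at 14.3 points. The intron, in capitals between 10 bases of each exon, has the usual first bases GT and last bases AG (GRCh38 chr11:614390-614485, minus strand).
76-nt intron: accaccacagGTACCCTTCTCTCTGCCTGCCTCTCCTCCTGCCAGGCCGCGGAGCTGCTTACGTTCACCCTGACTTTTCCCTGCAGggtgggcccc

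The other IRF7 choices varied less, with LSV spans from 9.6 to 12.7 points. Skipping of the 87-nt exon, which is 29 codons and so keeps the reading frame, had 9.0% in PMA-treated depleted cells, 7.1% in PMA-treated controls, 16.7% in unstimulated depleted cells and 14.5% in unstimulated controls in the LSV entering the 81-nt exon. Both annotated transcripts that skip it are protein coding. In that LSV the unstimulated groups were higher than the PMA-treated ones, and depleted and control cells differed by 1.9 points with PMA and 2.2 points without. The same junction in the LSV leaving the 226-nt exon, listed with PMA only, had 16.9% in PMA-treated depleted cells and 7.9% in PMA-treated controls, and the authors' deposited table gives it a posterior probability of 0.00503. The second acceptor of the 59-nt exon, 3 bases downstream of the main one, had 14.2% in PMA-treated depleted cells, 7.9% in PMA-treated controls, 4.6% in unstimulated depleted cells and 7.7% in unstimulated controls. It removes the first 3 bases, in capitals, of this exon start (GRCh38 chr11:614511-614534, minus strand).
59-nt exon start: AAGgcccaggcacggaccagactg
The other retained IRF7 introns did not follow the one at the coding start. The 85-nt intron after the 87-nt exon (hg19 chr11:613866-613950) averaged 10.05% in PMA-treated depleted cells, 13.6% in PMA-treated controls, 7.75% in unstimulated depleted cells and 10.35% in unstimulated controls. The 73-nt intron (chr11:613133-613205) averaged 15.45% in PMA-treated depleted cells, 17.75% in PMA-treated controls, 11% in unstimulated depleted cells and 11.7% in unstimulated controls. The 89-nt intron (chr11:615008-615096), listed with PMA only, stood between 2.5% and 8.8%. All the retained IRF7 introns in both tables were short, at 73 to 85 bases (median 80.5), against a median of 102 bases over all introns. The intron at the coding start had a G and C content of 75.3%, and the annotated introns that match or contain the other 3 had 61.8% to 64.8%.

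The introns of other genes whose mean shares lay nearest to those of the 85-nt intron over the 4 groups, by Euclidean distance among 15194 introns, were in NDOR1, THBS3, RPL24, SCNN1D and ZNF692. The NDOR1 intron (hg19 chr9:140109974-140110110), 11.4 points away, had 52.3% in PMA-treated depleted cells, 17.5% in PMA-treated controls, 37.8% in unstimulated depleted cells and 33.6% in unstimulated controls. The others lay 12.8 to 14.2 points away. In each of the 5 introns the PMA-treated control cells had the lowest share, at 8.85% to 24.2%, which the choice by distance itself brings about.

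IRF3, the partner of IRF7 that is made in most cells without induction, had 12 LSVs in both tables, with spans of 2.7 to 12.2 points (median 6.9) and none called. The widest of these spans were in 3 LSVs on chromosome 19. In the LSV entering the exon chr19:50166445-50166515, the junction from the neighbouring exon had 78.1% in PMA-treated depleted cells, 90.3% in PMA-treated controls, 81.3% in unstimulated depleted cells and 89.8% in unstimulated controls. In the LSV leaving the exon chr19:50168888-50169132, the main junction had 70.9% in PMA-treated depleted cells, 81.8% in PMA-treated controls, 74.4% in unstimulated depleted cells and 82.3% in unstimulated controls. In both, the depleted cells were lower in each state, by 7.9 to 12.2 points. The junction in the LSV leaving chr19:50168888-50169132 that skips the exons between had 11.9% in PMA-treated depleted cells, 2.6% in PMA-treated controls, 7.5% in unstimulated depleted cells and 5.9% in unstimulated controls. BCL2L12 overlaps IRF3 on the opposite strand in GENCODE 29, and the labels describe strand-specific libraries without saying how strand was used in counting. Annotated genes also overlap IRF1 and IRF2 on the opposite strand, and IRF2 and IRF9 on the same strand. For IRF7 no overlapping gene was found.

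The remaining one of these LSVs enters the exon chr19:50163970-50164260, toward the 3′ end of the gene. Its main junction, from position 50165205, had 70.1% in PMA-treated depleted cells, 81.8% in PMA-treated controls, 74.1% in unstimulated depleted cells and 74.4% in unstimulated controls. A junction to the same acceptor from position 50165682 had 11.2% in PMA-treated depleted cells, 2.5% in PMA-treated controls, 6.2% in unstimulated depleted cells and 7.4% in unstimulated controls. For both junctions depleted and control cells lay farther apart with PMA than without. This exon also has an alternative acceptor 16 bases upstream of the main one. Taken from position 50165205, the longer form had 13.8% in PMA-treated depleted cells, 11.1% in PMA-treated controls, 13.0% in unstimulated depleted cells and 17.4% in unstimulated controls. For the longer form the groups lay within 6.3 points. The exon is 132 bases in 2 annotated transcripts and 116 bases in 12. The 16 bases, which are not a multiple of 3, are in capitals at the exon's start (GRCh38 chr19:49660813-49660844, minus strand).
IRF3 exon start: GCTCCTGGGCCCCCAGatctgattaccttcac
The 573-nt intron of IRF3 (hg19 chr19:50167127-50167699) had a share of 16.6% in PMA-treated depleted cells, 18.2% in PMA-treated controls, 24.8% in unstimulated depleted cells and 15% in unstimulated controls in the LSV entering the downstream exon. In the LSV leaving the exon upstream (chr19:50167700-50167780), listed with PMA only, the same intron had 74.1% in PMA-treated depleted cells and 89.4% in PMA-treated controls. The other junction of that LSV had 25.9% in PMA-treated depleted cells and 10.6% in PMA-treated controls. The ends of this intron thus differed widely in level, and the posterior probability of 0.173 at the upstream end was the highest for IRF3 in the authors' deposited tables.

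IRF9, a DNA-binding partner of STAT2, had 9 LSVs with spans of 0 to 13.2 points (median 4.1) and none called. The widest was the LSV leaving the exon chr14:24633739-24634164, on the plus strand. Its main junction, to position 24635056, had 91.2% in PMA-treated depleted cells, 82.6% in PMA-treated controls, 95.8% in unstimulated depleted cells and 89.1% in unstimulated controls. The 101-nt intron that follows (chr14:24634165-24634265) had 7.6% in PMA-treated depleted cells, 13.7% in PMA-treated controls, 3.3% in unstimulated depleted cells and 9.7% in unstimulated controls. Its retention was thus lower in depleted cells in both states, the opposite side from the IRF7 intron. The posterior probabilities of the intron in the authors' deposited tables were 0.000198 with PMA and 0.000128 without.

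IRF1, an activator of interferon and interferon-induced genes, was spliced almost uniformly, as far as shares limited to 2.5% and 97.5% can show. Of its 15 LSVs, 14 had a leading junction of at least 90% in all 4 groups, and spans ran from 0 to 7.0 points (median 1.7). The widest, at the exon chr5:131826237-131826490, had a leading junction of 94.9% in PMA-treated depleted cells, 95.7% in PMA-treated controls, 93.4% in unstimulated depleted cells and 88.7% in unstimulated controls. Its 2 retained introns in both tables, of 108 and 109 bases, had mean shares of at most 3.4% in every group.

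IRF2, a repressor that competes for the same DNA elements as IRF1, had 8 LSVs. In 6 of them every share stood at the lowest or highest value listed, 2.5% or 97.5%. Variation beyond these limits could not show there. The other 2 describe a tandem acceptor at the exon chr4:185320069-185320233. Its second site, 6 bases inside the exon, had 9.0% in PMA-treated depleted cells, 13.1% in PMA-treated controls, 4.4% in unstimulated depleted cells and 17.5% in unstimulated controls in the LSV entering that exon. The LSV leaving the exon upstream gave 9.3% in PMA-treated depleted cells, 12.8% in PMA-treated controls, 4.5% in unstimulated depleted cells and 18.0% in unstimulated controls. Both LSVs hold the junctions to the main and the second site, and in both the unstimulated groups lay farthest apart. The posterior probabilities of this site without PMA in the authors' deposited table were 0.107 and 0.139. Use of the second site leaves out 6 bases, or 2 codons' length, shown in capitals (GRCh38 chr4:184399056-184399079, minus strand).
IRF2 exon start: TTGTAGgacagtcccatctggaca

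**Figure D3:**
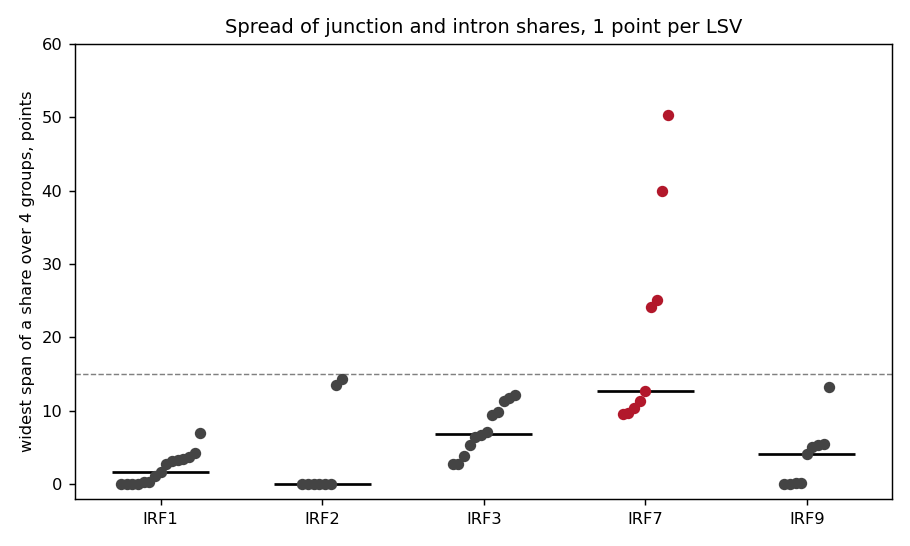
Widest span of a junction or intron share over the 4 groups, in percentage points, with 1 point for each of the 53 IRF LSVs in both tables, the median of each gene as a bar and a dashed line at 15 points. The 4 LSVs above the line are all in IRF7 (red), with spans from 24.1 to 50.3 points.

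Across the 5 genes the median LSV span was 4.1 points, beside 2.4 points over all 87517 LSVs in both tables. Spans of at least 15 points were found in 4 of the 53 IRF LSVs, all in IRF7, and in 12340 of the 87517 LSVs. The share of such LSVs was thus lower in the IRF genes than over all LSVs, while the median span was higher. The 4 IRF LSVs are pairs at both ends of the same IRF7 introns. Since the members were chosen with results known, nothing is read from this comparison. A share that differed by at least 10 points between depleted and control cells was found in 6 IRF LSVs (11.3%, all LSVs 13.2%) with PMA and in 5 (9.43%, all LSVs 9.80%) without. Between PMA-treated and unstimulated cells such a difference was found in 1 IRF LSV (1.89%, all LSVs 9.37%) among depleted cells and in 7 (13.2%, all LSVs 10.3%) among control cells. Those 7 were all in IRF7, of its 9 LSVs. They include LSVs at both ends of the same introns, so they are not 7 separate changes, and ends could disagree. For the 76-nt intron, PMA-treated minus unstimulated in control cells was 21.8 points entering the 226-nt exon and -17 points leaving the 59-nt exon. The 56 IRF junctions read in a pair of LSVs differed between the ends by a median of 0 points and by 32.3 points at most, and the 10 introns read so differed by a median of 3.35 and at most 23.6 points.

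**Figure D4:**
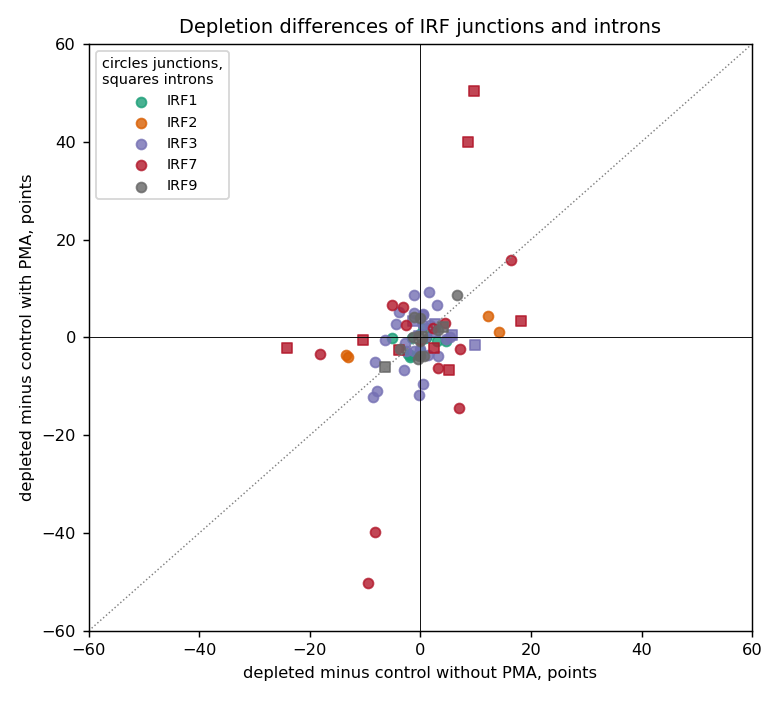
Depleted minus control for each IRF junction (circles) and retained intron (squares) in percentage points, with PMA on the y axis and without PMA on the x axis; the dotted line marks equal differences. The 85-nt IRF7 intron stands apart at 50.3 and 40 points with PMA and 9.7 and 8.7 points without, its junction mirrors it below 0, and most other IRF values lie near the centre.

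Other genes of the interferon pathway were taken from 4 lists of 91 genes in all. With PMA, 67 of them were listed and 7 had a called LSV (10.4%, background 10.6% of genes), and without PMA 64 were listed and 3 had a called LSV (4.69%, background 6.2% of genes). Both shares are near the background. At an expected change of at least 20 points in the authors' deposited tables, 10 genes passed with PMA (background 19.9%) and 5 without (13.7%), and at 10 points 23 passed with PMA (37.5%) and 10 without (29.5%). Among LSVs with no de novo junction, 2 genes were called with PMA (background 4.99%) and 0 without (2.86%). How many pathway genes have such an LSV is not given here, so these counts cannot be set against that background. Of the other IRF and IRF-binding genes, only the corepressor IRF2BP2 was listed in either table, with no call. Its junction to position 234744193 had 63.0% in PMA-treated depleted cells, 48.7% in PMA-treated controls, 67% in unstimulated depleted cells and 59% in unstimulated controls.

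Among interferon receptors and JAK-STAT genes, 3 of 15 listed genes had a called LSV with PMA (IFNAR2, PTPN6 and STAT2) and 1 of 14 without (STAT2). These are 20% with PMA (background 10.6% of genes) and 7.14% without (background 6.2%). IFNAR2, a chain of the type I interferon receptor, used its junction chr21:34633032-34634866 at 64.4% in PMA-treated depleted cells, 36.4% in PMA-treated controls, 38.5% in unstimulated depleted cells and 45% in unstimulated controls. PTPN6, a phosphatase that damps receptor signalling and was listed in this LSV with PMA only, used its junction chr12:7067236-7069090 at 38.8% in depleted cells and 87.3% in controls. STAT2, the partner of IRF9, retained its introns more in depleted cells. It was named because it had called LSVs, so its intron shares carry no test. Each of its 7 retained introns had a higher mean share in depleted than in control cells in both states, by a median of 13.9 points with PMA (2.55 to 21.05) and 16.8 points without (1.35 to 23.95), beside a median of 0 over all introns. Its 103-nt intron (chr12:56742844-56742946) averaged 32.55% in PMA-treated depleted cells, 11.5% in PMA-treated controls, 39.5% in unstimulated depleted cells and 15.55% in unstimulated controls. For this intron depleted minus control was 21.05 points with PMA and 23.95 points without. Leaving the exon upstream, it had posterior probabilities of 0.679 with PMA and 0.951 without in the authors' deposited tables. The STAT2 calls with PMA came from junctions, and STAT2 introns in called LSVs stood at 0.932 or lower with PMA. The ends of an intron could differ in size of change. With PMA the authors' deposited expected change of the 83-nt intron was 26.0 points entering the downstream exon. It was 0.476 points leaving the upstream exon. Junction chr12:56743045-56743210, leaving chr12:56743129-56743293, had 52.1% in PMA-treated depleted cells and 86.4% in PMA-treated controls (0.9998). Junction chr12:56745234-56748250 had 69.3% and 94.6% in the same groups (0.967).

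**Figure D5:**
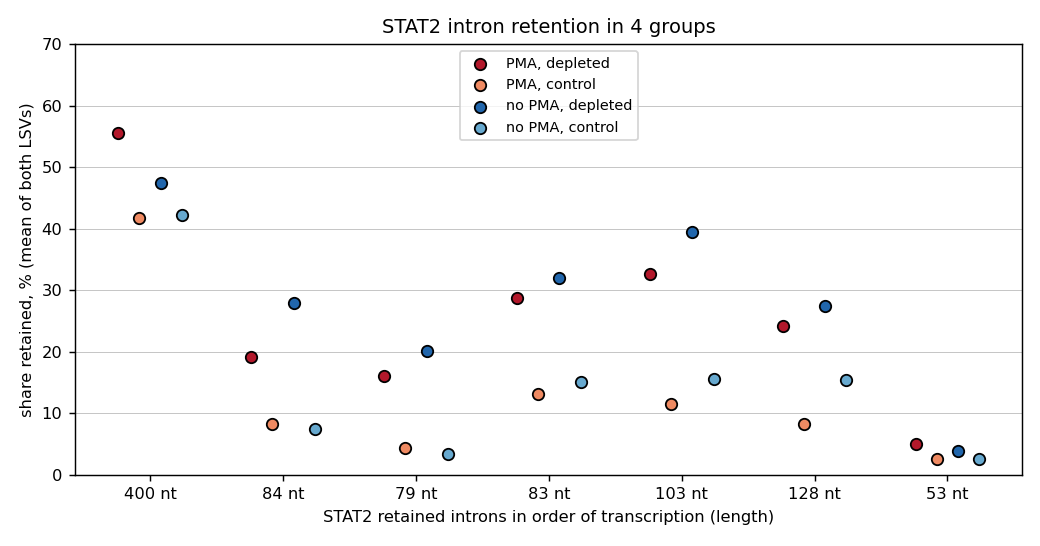
Mean share retained in percent for the 7 STAT2 introns in order of transcription, labelled by length, in the 4 groups (colours; each value pooled over 2 libraries). In every intron the depleted group lies above the control group of the same state, by 1.35 to 23.95 points.

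Among sensors, adaptors and kinases upstream of IRF3 and IRF7, 1 of 17 listed genes had a called LSV with PMA (TRAF3) and 2 of 18 without (IKBKB and IRAK4). These are 5.88% with PMA (background 10.6% of genes) and 11.1% without (background 6.2%). TRAF3, an adaptor that links sensors to the kinases of IRF3 and IRF7, used the junction that skips an exon (chr14:103352606-103357662) at 2.5% in PMA-treated depleted cells, 34.9% in PMA-treated controls, 2.5% in unstimulated depleted cells and 5.0% in unstimulated controls. In TRAF3 the PMA-treated control group stood apart from the other 3 groups, and both depleted groups were at the lowest share listed. TRAF3 was named because it was called with PMA, so this contrast carries no test. IKBKB, a kinase of the NF-kappaB pathway, used its main junction chr8:42128987-42129601 at 85.7% in PMA-treated depleted cells, 96.4% in PMA-treated controls, 44.4% in unstimulated depleted cells and 96.8% in unstimulated controls. IRAK4, a kinase of Toll-like receptor signalling, retained its 115-nt intron at 27.2% in PMA-treated depleted cells, 33.7% in PMA-treated controls, 58.1% in unstimulated depleted cells and 14.5% in unstimulated controls.

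Among interferon-induced genes, 3 of 34 listed genes had a called LSV with PMA (HERC6, PARP14 and XAF1) and 0 of 31 without. These are 8.82% with PMA (background 10.6% of genes) and 0% without (background 6.2%). PARP14, an ADP-ribosyltransferase, used its junction to position 122432112 at 3.3% in PMA-treated depleted cells, 33.2% in PMA-treated controls, 2.8% in unstimulated depleted cells and 6.7% in unstimulated controls. HERC6, of a family of ubiquitin ligases and listed in this LSV with PMA only, used its junction chr4:89361402-89363386 at 81.8% in depleted cells and 51.1% in controls. XAF1, a gene linked to cell death and listed likewise, used its junction to position 6663725 at 36.5% in depleted cells and 5.1% in controls. Whether the splicing differences of these genes were tied to interferon activity was not tested, since the tables hold no expression levels.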

How the data were processed

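Polyadenylated RNA was sequenced from stranded libraries, per the labels' protocols. STAR 2.5.1b and hg19 are named in the submitters' processing notes, without their roles. The deposited files are 2 tables of splicing changes with the column names of the MAJIQ and VOILA programs, of a version that the sources used here do not give. Per the file headers each row is 1 LSV, and semicolon-separated lists give for every junction the share per group, the expected change and its posterior probability of reaching 20 points. These deposited lists are neither counts nor levels. Both libraries of a group were pooled by the authors, so no SD, interval or test per library was possible, and read depth is unknown.

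Rows were split into junctions and introns with Python 3.11.15 and pandas 2.3.3. Shares were turned into percent, and differences are depleted minus control or PMA-treated minus unstimulated. An intron's value is the mean over its LSVs. Calls required a posterior probability of 0.95 or more, and the splitting was tested on simulated data. Unused columns of per-sample values numbered 0.

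The text names all 5 members, each pathway gene with a called LSV, and IRF2BP2, named after its values were seen as the only listed gene of its list. Member LSVs in both tables that were called or spanned at least 15 points are given in full, the others by ranges with examples of the widest shares. LSVs listed with PMA only are given by their shares, or the range of these, in both PMA-treated groups. The 5 introns nearest to the IRF7 intron are named too. Members, lists and rules were chosen with earlier results of these data known. Alternatives changed the threshold, the measure, the LSVs used and how the shares were combined. Leaving out libraries was not possible. Sequences were read from GENCODE 29 transcripts and matched to the tables by gene and by exon or intron length. No coordinate was converted between builds.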

Additional observations from a re-analysis of the deposited data

Results flagged for a closer look

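Retention of the 85-nt IRF7 intron moved with PMA in opposite directions in depleted and control cells, at both ends of the intron. PMA-treated minus unstimulated was 11.3 points in depleted cells and -24.65 points in control cells, a difference of 35.95 points. The ends themselves differed in level by 23.6 points in unstimulated depleted cells, more than the rise of 11.3 points. Each share is pooled over 2 libraries and the states come from separate tables, so the difference of 35.95 points was not tested.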

How the results depend on the processing

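No paired analysis was possible because the authors pooled both libraries of each group into 1 value, and for the same reason no library could be left out. Of 37 alternative values, 22 stayed close to those given, 15 moved and 0 changed direction. Most of the 37 are counts, which cannot change direction, so only the differences in points could have done so. The call of 2 IRF LSVs with PMA became 5 at an expected change of at least 10 points in the authors' deposited table and 0 among LSVs with no de novo junction. Without PMA the count of 0 became 1 at an expected change of at least 20 points and 3 at 10 points. The 7 pathway genes with PMA became 23 at 10 points and 2 with no de novo junction. The 3 pathway genes without PMA became 5 at 20 points, 10 at 10 points and 0 with no de novo junction. For the 85-nt IRF7 intron, depleted minus control with PMA was 40 points in the LSV leaving the upstream exon and 50.3 points in the LSV entering the downstream exon. Without PMA it was 0.867 points by the expected change in the authors' deposited table, against 9.2 points by the shares. PMA-treated minus unstimulated in control cells was -15.5 points leaving and -33.8 points entering. By the largest absolute difference, 3 of the 5 nearest introns remained. The cause of these differences between settings was not tested. Depth behind each share is unknown, and it limits every value here.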
